A study of Solanum lycopersicum and Solanum tuberosum and Capsicum annuum and Nicotiana tabacum with 10 samples.

Results

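The genes described here are AOX, which encodes alternative oxidase, and UCP, which encodes an uncoupling protein. They were taken as all spots of a potato cDNA array whose probe carried AOX or UCP as its only gene symbol. That rule uses no measured value, but the genes were chosen with earlier results of these data known. This gave 6 spots, the duplicates of 3 clones from 2 genes: 1 clone of AOX (NCBI Gene 102588786) and 2 clones of UCP (both NCBI Gene 102585221), of 815 clones with a single symbol and 15360 clones on the array. The UCP clones are called UCP clone 1 and UCP clone 2, and since they report on 1 gene they are not independent of each other. Their genome positions were not analysed here.

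Alternative oxidase sits in the inner membrane of plant mitochondria and passes electrons from ubiquinol straight to oxygen, so that the cytochrome pathway with its proton-pumping complexes is bypassed. Uncoupling proteins belong to the mitochondrial carrier family of the same membrane and can let protons return to the matrix without passing ATP synthase. Both lower the yield of ATP per oxygen consumed, both are known for keeping the electron transport chain of leaves from becoming over-reduced, and a plant uncoupling protein was first described in potato.

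RNA from mature leaves of 5 query species (tomato, pepper, petunia, tobacco and N. benthamiana) was hybridized against potato leaf RNA on 10 arrays, 2 per query species. All plants, potato included, had been kept at 25 °C with 16 h of light and 8 h of darkness for 4 to 6 weeks without treatment. On each array Cy3 marked the query RNA and Cy5 the potato RNA, and the arrays of a replicate number shared 1 potato extract. Whether the replicate extracts of a species were taken from different plants is not stated, so the p-values reflect the spread between these samples, and that spread may be technical.

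Each value below is a log2 ratio of both channels, averaged over the duplicate spots of a clone. The sources used here do not state its direction. A negative value is likely a brighter signal in the query species and a positive value a brighter signal in potato: the array titles name potato first, limma forms its log ratios as red over green, and the differences of another query species minus tomato were skewed to the positive side in 8 of 8 comparisons (skewness 0.031 to 0.62). However, 99.3% of the deposited values match minus the log2 of a ratio rounded to 2 decimals. Which channel was the numerator of that ratio is not stated, so the limma convention cannot settle the direction. Every statement below on a side of potato or of the query species rests on this likely direction. The tests take both directions, so turning the sign would flip the direction of each call and could not change a count. Because dyes were not swapped, a dye effect of a probe and weaker binding of another species' RNA to a potato cDNA cannot be told apart from RNA level in a comparison with potato, nor can signal from related gene copies, fewer cells of a type or less RNA per cell. Potato and a constant dye effect cancel between query species. Differences between query species in binding to the potato cDNA, or in signal from related gene copies, do not cancel and were not tested. The ratios give no level in either channel, so the labelled tissue was not checked against leaf markers, and the levels of AOX and UCP were not set against each other.

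The arrays held values for 9279 to 10439 clones, their medians lay between -0.08 and -0.02, and any 2 arrays correlated at 0.65 to 0.95 across clones. The duplicate spots of a clone differed with an SD of 0.25 to 0.37 on an array. Among the 10 arrays, AOX had a value on 10 (8 from both spots), UCP clone 2 on 10 (all from both spots) and UCP clone 1 on 8 (6 from both spots). The duplicate spots of AOX lay 0.025 to 0.202 apart, those of UCP clone 2 0.013 to 0.455 and those of UCP clone 1 0.111 to 0.653.

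AOX and UCP lay on opposite sides of potato. The AOX ratio was negative on 10 of 10 arrays, from -2.12 to -0.37 with a median of -1.24. UCP clone 1 was positive on 8 of 8 arrays, from 0.135 to 1.06, and UCP clone 2 was positive on 8 of 10, from -0.11 to 1.03. On every array the ratio of UCP clone 2 was above that of AOX, by 0.89 to 3.15, and UCP clone 1 was above AOX on each of the 8 arrays where it had a value, by 0.75 to 2.48. The 10 arrays hold only 2 potato extracts and are not 10 separate comparisons.

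**Figure D1:**
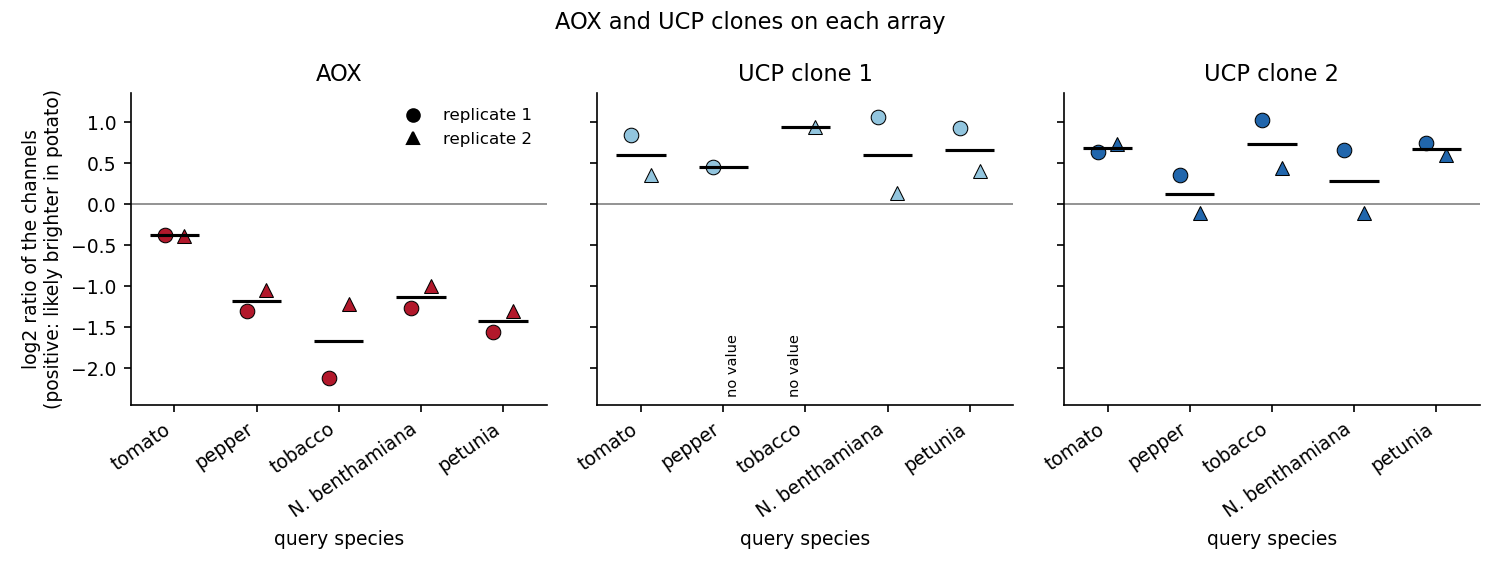
The log2 ratio of each clone (vertical axis, positive likely brighter in potato) is plotted for the 5 query species, with circles for replicate 1, triangles for replicate 2 and a line at the species mean. AOX lies below 0 on all 10 arrays and nearest to 0 in tomato, while UCP clone 1 lies above 0 on its 8 arrays and UCP clone 2 on 8 of 10.

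The AOX ratio in tomato was -0.37 on the array of replicate 1 and -0.39 on that of replicate 2, where it came from 1 spot (mean -0.38 ± 0.013, SD, n = 2). In pepper it was -1.305, from 1 spot, and -1.05 (-1.18 ± 0.18, SD, n = 2). In tobacco it was -2.12 and -1.21 (-1.67 ± 0.64, SD, n = 2). These values put tomato closest to potato and show that the tobacco arrays spread far more than those of tomato or pepper. In N. benthamiana, a wild relative of tobacco, the ratio was -1.27 and -0.99 (-1.13 ± 0.19, SD, n = 2). In petunia it was -1.56 and -1.30 (-1.43 ± 0.18, SD, n = 2). No tomato array overlapped an array of another species, whereas the arrays of the other 4 species overlapped one another, except that both N. benthamiana arrays lay above both petunia arrays.

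Against potato, AOX was called negative in 4 of 5 species by limma with Benjamini-Hochberg adjustment over all clones tested. The signal was 3.18-fold to the side of the query species in tobacco (adjusted p = 0.00016), 2.70-fold in petunia (adjusted p = 0.00038), 2.26-fold in pepper (adjusted p = 0.0013) and 2.19-fold in N. benthamiana (adjusted p = 0.0014), with an SE of 0.21 on the log2 scale throughout. Calls were common on these arrays: 29.4% of all clones tested were called negative in tobacco, 29.7% in petunia, 28.5% in pepper and 31.1% in N. benthamiana. In tomato, where 25.1% of clones were called negative, the AOX ratio of -0.38 did not pass (95% interval -0.85 to 0.09, adjusted p = 0.15). Within each species, the share of clones with a still lower mean ratio was 3.27% in tobacco, 5.06% in petunia, 7.47% in pepper, 10.2% in N. benthamiana and 30.9% in tomato.

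Over the mean of the 5 species, AOX stood at -1.16 (SE 0.09, adjusted p = 2.5e-06), a comparison in which limma called 41.3% of clones negative. With the shared potato extract of a replicate as a random block, the SE rose to 0.145 and the adjusted p was 4.3e-05, with 34.9% of clones called negative.

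**Figure D2:**
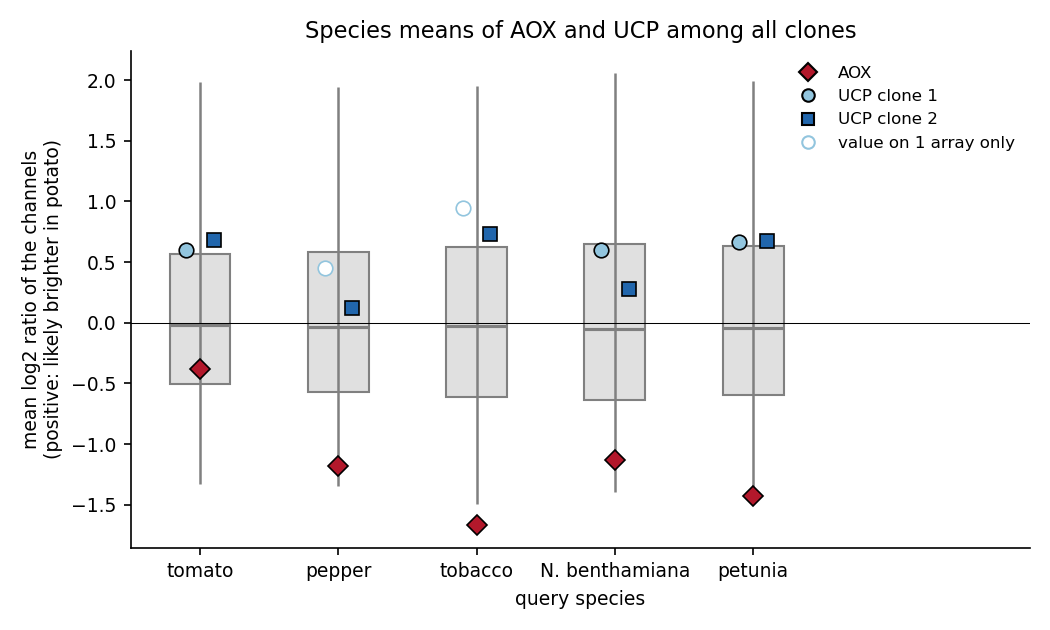
For each query species the grey box spans the middle of all clones' mean log2 ratios (25th to 75th percentile), the grey bar the median and the line the 5th to 95th percentile, with the mean of each AOX and UCP clone on top (open circles rest on 1 array). AOX is below the 5th percentile only in tobacco and inside the box in tomato, and the UCP clones lie near or above the upper edge of the box except in pepper and, for UCP clone 2, N. benthamiana.

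UCP clone 2, the UCP clone measured on every array, had ratios of 0.63 and 0.74 in tomato (0.68 ± 0.075, SD, n = 2). In tobacco they were 1.03 and 0.44 (0.73 ± 0.41, SD, n = 2), and in petunia 0.75 and 0.59 (0.67 ± 0.11, SD, n = 2). All 6 of these arrays were positive, on the side of potato. In pepper the ratios were 0.36 and -0.11 (0.125 ± 0.33, SD, n = 2). In N. benthamiana they were 0.66 and -0.10 (0.28 ± 0.54, SD, n = 2). In both of these species the replicates fell on different sides of 0.

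limma called UCP clone 2 positive in 3 of 5 species: 1.66-fold in tobacco (adjusted p = 0.017), 1.59-fold in petunia (adjusted p = 0.025) and 1.61-fold in tomato (adjusted p = 0.026), with an SE of 0.22. Of all clones tested, 28.7% were called positive in tobacco, 28.7% in petunia and 25.9% in tomato, and the 3 calls are to be read against that background. The clone was not called in pepper (95% interval -0.37 to 0.62, adjusted p = 0.64) or N. benthamiana (-0.21 to 0.77, adjusted p = 0.29), where 27.2% and 29.1% of clones were called positive. The calls in tomato, tobacco and petunia were each lost when 1 array of that species was left out: without tomato replicate 1 or 2, without tobacco replicate 1, and without petunia replicate 1 or 2 (adjusted p up to 0.195, 0.255 and 0.170).

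UCP clone 1 had ratios of 0.84 and 0.36 in tomato (0.60 ± 0.34, SD, n = 2) and of 0.92 and 0.41 in petunia (0.67 ± 0.36, SD, n = 2). In N. benthamiana they were 1.06 and 0.135, each from 1 spot (0.60 ± 0.65, SD, n = 2). Its only values in pepper (0.45, replicate 1) and tobacco (0.94, replicate 2) have no replicate, so it was not tested there. All these values were positive, but in the 3 species with both arrays the replicates lay 0.485 to 0.92 apart. None of the 3 species passed in limma (adjusted p = 0.090 in tomato, 0.081 in N. benthamiana and 0.059 in petunia, SE 0.26). With the shared potato extract as a random block all 3 passed (adjusted p = 0.049, 0.043 and 0.029), at unchanged ratios, in a fit that called 26.8% of clones positive in tomato, 30.1% in N. benthamiana and 29.4% in petunia.

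Over the mean of the 5 species, UCP clone 1 stood at 0.65 (SE 0.14, adjusted p = 0.0029) and UCP clone 2 at 0.50 (SE 0.10, adjusted p = 0.0010), in a comparison where limma called 38.7% of clones positive. The mean of UCP clone 1 rests on 1 array each in pepper and tobacco. With the random block the adjusted p was 0.0068 and 0.012, and 33.3% of clones were called positive. The clones of this gene differed little next to the spread between arrays: UCP clone 2 minus UCP clone 1 ran from -0.50 to 0.38 over the 8 arrays that held both (mean -0.13, SD 0.29) and was positive on 2.

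Next, the query species were compared with each other, a comparison in which potato drops out but differences in binding to the potato cDNA do not. The AOX ratio differed among the 5 species in limma's F test (F = 5.40, adjusted p = 0.047), which called 35.6% of all clones. That call was marginal: it was lost when arrays were median-centred (adjusted p = 0.0501) or also scaled (adjusted p = 0.095), and when any array other than those of tobacco was left out (adjusted p up to 0.194). With the replicate number as a fixed block AOX passed (F = 9.63, adjusted p = 0.0061), as did 64.4% of all clones. UCP clone 2 did not pass (F = 1.62, adjusted p = 0.33, and 0.093 with the block), and UCP clone 1 lacked the arrays for this test.

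Tomato stood apart from the other species in AOX. Its ratio was higher, that is, further to the side of potato, by 0.60 to 1.75 in 8 of 8 comparisons with another species within a replicate. Those comparisons reuse the same 2 tomato values and are not separate. Against the mean of the other 4 species it was higher by 0.97 (SE 0.23, 95% interval 0.445 to 1.496, adjusted p = 0.015 in limma, 29.1% of clones called). Without tomato replicate 1 or without tomato replicate 2 this call was lost (adjusted p up to 0.119). For AOX in tobacco minus the mean of the others the difference was -0.64 (95% interval -1.16 to -0.11, adjusted p = 0.146, 3.89% of clones called), and with the fixed block it passed (adjusted p = 0.031), in a fit that called 19.0% of clones. Petunia (-0.34, 9.7% of clones called), pepper (-0.03, 16.7%) and N. benthamiana (0.04, 6.02%) were not called in AOX. UCP clone 2 was called in none of these 5 contrasts, at differences of -0.47 in pepper to 0.29 in tobacco and an SE of 0.24.

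By pairs, AOX was called in 2 of 10 contrasts. Tomato minus tobacco was 1.29 (95% interval 0.62 to 1.95, adjusted p = 0.015, 22.8% of clones called in limma) and tomato minus petunia 1.05 (0.39 to 1.71, adjusted p = 0.034, 21.6% called). Leaving out either tomato array ended both calls, and leaving out tobacco replicate 1 ended the one with tobacco. The call with petunia ended without either petunia array, and when the arrays were scaled (adjusted p = 0.071 in limma). In each of these fits without an array, fewer of all clones were called in the same pair. Whichever array was left out, the difference stayed at 0.83 to 1.74 against tobacco and at 0.92 to 1.18 against petunia. Tomato minus pepper was 0.80 (0.13 to 1.46, adjusted p = 0.096, 16.5% called) and tomato minus N. benthamiana 0.75 (0.08 to 1.41, adjusted p = 0.108, 17.5% called). Both of these passed with the replicate number as a fixed block (adjusted p = 0.021 and 0.026), a fit in which 33.2% and 36.3% of clones were called.

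Among the other 4 species no pair was called in AOX. The intervals ran from -0.17 to 1.16 for pepper minus tobacco (0.49, 12.2% of clones called), from -0.71 to 0.62 for pepper minus N. benthamiana (-0.05, 13.4%), and from -0.41 to 0.92 for pepper minus petunia (0.25, 13.8%). Those for tobacco ran from -1.20 to 0.13 against N. benthamiana (-0.54, 0.562% called) and from -0.90 to 0.43 against petunia (-0.24, 2.63% called), and that for N. benthamiana minus petunia from -0.36 to 0.97 (0.30, 4.85% called). From the most negative, the order of AOX was tobacco, petunia, pepper, N. benthamiana and tomato, and no neighbours in it were separated by limma without the block.

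**Figure D3:**
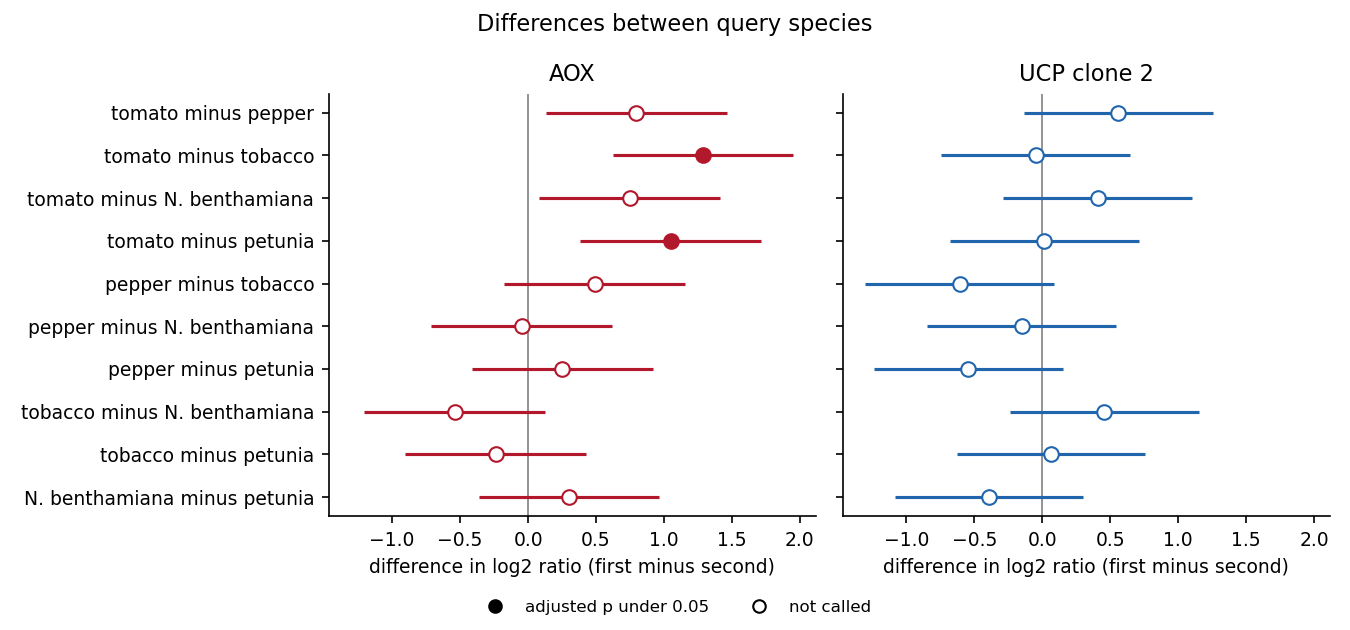
Differences in log2 ratio between pairs of query species (first minus second, horizontal axis) are shown with their 95% intervals from limma for AOX and UCP clone 2, filled where the adjusted p is under 0.05. The 4 AOX intervals with tomato lie above 0 and 2 of them are called, while every UCP clone 2 interval crosses 0.

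UCP clone 2 was called in 0 of 10 pairs. Its largest differences were those of pepper, -0.61 against tobacco (95% interval -1.30 to 0.09, adjusted p = 0.23), 0.56 for tomato minus pepper (-0.13 to 1.25, adjusted p = 0.24) and -0.55 against petunia (-1.24 to 0.15, adjusted p = 0.27). At an unadjusted p under 0.05 in limma none of the 10 passed either, and these 3 did with the fixed block (adjusted p of 0.066 or more). Such passes were common in that fit. Of all clones tested, 3536 of 8615 passed in pepper minus tobacco, 3909 of 8739 in tomato minus pepper and 3571 of 8441 in pepper minus petunia. Tomato, tobacco and petunia lay within 0.06 of each other in this clone. UCP clone 1 could be compared in 3 pairs, tomato, N. benthamiana and petunia, where differences were -0.07 to 0.00 with intervals that ran as low as -0.93 and as high as 0.86.

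The replicates of a species moved in opposite ways in both genes. Replicate 1 was below replicate 2 in 4 of 5 species in AOX, by 0.25 to 0.91. In UCP clone 2 it was above replicate 2 in 4 of 5 species, by 0.15 to 0.77, and in UCP clone 1 in 3 of 3, by 0.485 to 0.92. Tomato was the exception in AOX (0.02) and in UCP clone 2 (-0.11). The replicate number stands for the potato extract and for the arrays hybridized with it, which cannot be told apart. The difference of 0.91 between the tobacco arrays in AOX was larger than that of 94.6% of clones in tobacco, where the median difference was 0.279, and the difference between the tomato arrays was smaller than for all but 4.69% of clones.

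Other clones of mitochondrial genes were set beside AOX and UCP, in a list made from gene symbols: 6 clones of 5 genes, a small part of the mitochondrial genes a plant has. TOM20, an import receptor of the outer membrane, was called positive in all 5 species (ratios of 1.58 in N. benthamiana, 1.31 in tobacco, 1.24 in tomato, 0.61 in petunia and 0.53 in pepper). LPD2, a lipoamide dehydrogenase that serves the 2-oxoacid dehydrogenase complexes, was called negative in 4 (-2.05 in tomato, -1.49 in pepper, -0.58 in tobacco and -1.35 in N. benthamiana) and stood at -0.28 in petunia (adjusted p = 0.28). LPD2 was thus lowest in tomato, the species in which AOX was nearest to potato. PDHE1-A, the E1 alpha subunit of pyruvate dehydrogenase, had 2 clones that were called positive in different numbers of species. Its second clone was called in 4 species (0.739 to 1.001) and stood at 0.36 in tomato (adjusted p = 0.10), and its first in N. benthamiana (0.51) and petunia (0.98) only. TYKY2, a subunit of complex I, was called in no species (-0.31 to 0.32). SHMT, a serine hydroxymethyltransferase of the kind that works with glycine decarboxylase in leaves, could be tested only in tobacco (0.56, adjusted p = 0.041).

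By count, the list had 1 clone called positive and 1 negative of 5 tested in tomato, 2 and 1 of 5 in pepper, 3 and 1 of 6 in tobacco, 3 and 1 of 5 in N. benthamiana, and 3 and 0 of 5 in petunia, counts to be read beside the shares of clones called in each direction given above. Its median ratio was highest in petunia (0.61), followed by N. benthamiana (0.51), tobacco (0.44), pepper (0.23) and tomato (0.15), against -0.01 to -0.05 over all clones tested. By sign alone, the species means of UCP lay on the same side of potato as the median of the list, and those of AOX and LPD2 on the other. In tomato and pepper that median was the value of TYKY2, which was not called in limma (adjusted p = 0.50 and 0.30). UCP clone 2 was not called in pepper or N. benthamiana, AOX not in tomato and LPD2 not in petunia. The list was made after the AOX and UCP values had been seen. The arrays compared here share their potato extracts.

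**Figure D4:**
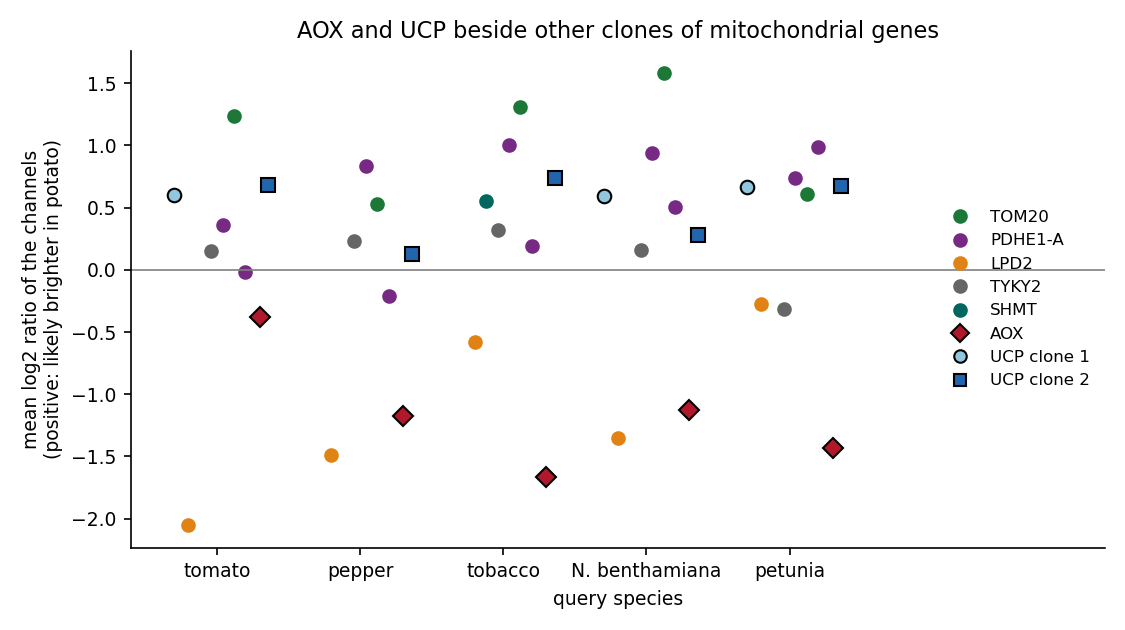
Mean log2 ratios (vertical axis, n = 2 arrays a point) are plotted for the 6 clones of 5 other mitochondrial genes and for AOX and UCP in each query species; the PDHE1-A clones share a colour. AOX and LPD2 are the clones furthest below 0 except in petunia, where TYKY2 (-0.31) lies just below LPD2 (-0.28), with LPD2 lowest in tomato (-2.05) and AOX lowest in tobacco (-1.67).

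Among 726 clones of other single-symbol genes, the one most like AOX over the 10 arrays was LOC102577909, with a root mean square difference of 0.18 in log2 ratio. Its species means were -1.72 in tobacco, -1.54 in petunia, -1.21 in N. benthamiana, -0.97 in pepper and -0.58 in tomato, so that tomato was nearest to potato and tobacco furthest from it in both. LOC102594653 (0.285) and LOC102596994 (0.304) followed. For UCP clone 2 the closest of 725 clones were LOC102584908 (0.257), LOC102577768 (0.262) and RA215 (0.279). For UCP clone 1, over 8 arrays and 640 clones, they were 16R (0.198), LOC102582711 (0.258) and LOC102584908 (0.26), the last of which was also closest to UCP clone 2. These likenesses are descriptions over arrays that share potato extracts.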

How the data were processed

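The deposited values were log2 ratios of both channels, 1 per spot, in the series' value table. The authors read the scans with GenePix, dropped spots that were missing in a channel, saturated or too small, subtracted the local background and applied quantile normalization in limma (version not given in the sources used here). Removed spots give missing values, and 99.3% of values match minus the log2 of a ratio rounded to 2 decimals. The probes' gene symbols were those of the platform annotation.

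Here the duplicate spots of a clone were averaged, and 16.8% of clone values rest on 1 spot. The slide layout of the duplicates was worked out from spots with a common sequence record, and 905 of 905 such pairs matched it. Tests used limma 3.58.1 in R 4.3.3: lmFit on all 10 arrays with 1 coefficient per species and eBayes, without a block, at a Benjamini-Hochberg adjusted p of 0.05 over all clones tested. A species was tested over clones with values on both of its arrays, and the F test over the 7823 clones with values on all arrays. Intervals are 95% without adjustment. The fit was tested on simulated data.

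Per the labels, the arrays of a replicate number share a potato extract. After subtracting species means, arrays with the same number correlated at 0.29 to 0.68 in all 10 pairs of species, so the numbers pair the arrays, and blocked values stand beside results whose call they change. Alternatives covered centring, scaling, the clones tested, values from 2 spots, random and fixed replicate blocks, the variance prior and leaving out each array. The members and lists were chosen with earlier results of these data known. Named genes were all AOX and UCP clones, the mitochondrial clones and the 3 clones closest to each member. Key words set for mitochondrial groups could not be matched, since the table gives symbols only, and the mitochondrial list was made from symbols after the AOX and UCP values had been seen. With 2 arrays per species, the number of arrays limits the precision.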

Additional observations from a re-analysis of the deposited data

Results flagged for a closer look

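The log2 ratio of AOX to potato was called different among the 5 query species by limma's F test (adjusted p = 0.0468), which called 35.6% of all clones. That call was marginal and was lost when arrays were median-centred or also scaled, and when any array other than those of tobacco was left out. The contrasts called beside the F test were tomato minus tobacco (1.29 in log2 ratio, 22.8% of clones called) and tomato minus petunia (1.05, 21.6%). Tomato minus the mean of the other 4 species was called as well (0.97, 29.1%). Each of these calls with tomato was lost when either tomato array was left out. No contrast of a UCP clone between query species passed.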

How the results depend on the processing

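AOX was called against potato in pepper, tobacco, N. benthamiana and petunia under every alternative that could test it and in tomato under none, and all 3 clones were called over the mean of 5 species wherever tested. Of 13 tests against potato 7 were called, and 10 with the random replicate block. Of all clones, 51.1% to 60.2% were called per species in limma, and 52.3% to 61.7% with that block. The 13 tests include 2 clones of 1 gene and share potato extracts, so they are not independent. Between query species, either block also raised the share of all clones called. In the 4 pairs with tomato this share was 16.5% to 22.8% without a block. It was 31.5% to 37.6% with the random block and 33.2% to 39.5% with the fixed block. For tomato minus the mean of the other 4 species the shares were 29.1%, 43.7% and 45.3% in that order. For tobacco minus the mean of the others they were 3.89%, 18.1% and 19.0%. Among the 5 species 1 clone was called, 0 when arrays were median-centred or scaled, 0 with values from 2 spots, where AOX could not be tested, and 0 to 1 when leaving out each array. Of the pairs 2 were called, 1 with scaled arrays, 0 with values from 2 spots (fewer pairs tested), 4 with the random or fixed replicate block and 0 to 3 when leaving out each array. Of the contrasts with the mean of the other 4 species 1 was called, 0 with values from 2 spots, where AOX could not be tested, 2 with either replicate block and 0 to 1 when leaving out each array.

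Some values turned their sign, and none of these was called. When arrays were median-centred, UCP clone 2 in tomato minus petunia went to -0.015 and UCP clone 1 in tomato minus N. benthamiana to -0.045, and when arrays were also scaled, UCP clone 2 in tomato minus tobacco went to 0.038 and UCP clone 1 in tomato minus petunia to 0.0035. The other turns came from leaving out an array. UCP clone 2 then ranged from -0.11 to 0.357 in pepper, from -0.10 to 0.66 in N. benthamiana and from -0.66 to 0.11 in N. benthamiana against the other 4 species, and by pairs from -0.34 to 0.24 in tomato minus tobacco, -0.061 to 0.090 in tomato minus petunia, -0.54 to 0.23 in pepper minus N. benthamiana and -0.23 to 0.36 in tobacco minus petunia. UCP clone 1 ranged from -0.46 to 0.46 in tomato minus N. benthamiana, -0.33 to 0.19 in tomato minus petunia and -0.53 to 0.39 in N. benthamiana minus petunia. AOX ranged from -0.185 to 0.0885 in pepper minus N. benthamiana, from -0.69 to 0.22 in tobacco minus petunia, from -0.15 to 0.10 in pepper against the other 4 and from -0.10 to 0.17 in N. benthamiana against the other 4. Over all clones, the F test called 2783 without the replicate block, 5036 with the fixed block, and 1253 to 2983 when leaving out each array. For tobacco minus N. benthamiana the counts were 49, up to 384 with a block, and 0 to 32. Where an array was left out, the lone array of that species was assumed to vary like the others. The cause of these changes was not tested.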
